A study of Homo sapiens with 19 samples.

Results

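S100 proteins are small calcium-binding proteins, and 8 of their genes are described here: S100A8, S100A9, S100A12, S100A4, S100A6, S100A10, S100A11 and S100P. They were taken by gene name from the array, and made up 8 of its 31033 gene names and 9 of its 50238 probes, since S100A11 had 2 probes and each of the others had 1. The cells were THP-1, a human line from a monocytic leukaemia, turned into macrophage-like cells with 30 nM of the phorbol ester PMA. All cells received PMA. Vit C-treated cells then received 0.1 mM vit C, and untreated (UT) cells did not. RNA was taken at 8, 24, 48 and 96 h and hybridized to 19 one-colour Agilent arrays, with 2, 3, 2 and 3 arrays of UT cells and 3, 2, 2 and 2 arrays of vit C-treated cells at these times. Flasks of this single line were the replicates, so the errors given cover the spread between flasks and arrays of 1 experiment and not between donors.

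Values are the log2 of the processed signal minus the array's 75th percentile, called the normalized log2 signal. A value is comparable between arrays for 1 probe but not between probes. The 75th percentile of the signal ranged from 290.2 to 903.5, with the highest values, 787.6 and 903.5, on the vit C arrays of 96 h, and the number of arrays limits the precision. The brightest probe of each of the 8 genes was marked well above background on all 19 arrays, and no spot was saturated. Calls required a log2 difference of 1 or more together with q of 0.05 or less. Here q is limma's p-value after Benjamini-Hochberg adjustment over all probes tested. The arrays lay on 4 slides. Slide 1 held all UT arrays of 8, 24 and 48 h and 1 of 96 h. Slide 2 held the other UT arrays of 96 h and all vit C arrays of 8 and 24 h with 1 of 48 h. The second vit C array of 48 h was alone on slide 3, and the vit C arrays of 96 h were alone on slide 4, which was scanned on another day. No slide held UT and vit C arrays of the same time. Of 17 monocyte and macrophage markers, 12 were well above background on all arrays, among them PTPRC, CD14, CD68, ITGAM and CSF1R, while MRC1 was so on 0 arrays. Of the markers of other cell types, the epithelial genes KRT5 and CDH1 were well above background on 0 arrays, CD3E and CD79A on all 19, and the fibroblast gene DCN on 14.

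S100A8 and S100A9 pair to form calprotectin, a major cytosolic protein of neutrophils and monocytes that binds calcium, zinc and manganese. Released from cells, calprotectin and S100A12 act as alarmins, proteins that signal tissue damage through TLR4 and the receptor AGER (RAGE). S100A8, S100A9 and S100A12 are made by monocytes and are lower in most resident macrophages. S100A4 binds non-muscle myosin, S100A6 binds the ubiquitin ligase partner CACYBP, S100A10 forms a complex with annexin A2, S100A11 binds annexin A1, and S100P binds ezrin.

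In RefSeq, 7 of the 8 genes lie on chromosome 1, where S100A9, S100A12 and S100A8 are next to each other in this order, and S100P lies on chromosome 4. Since these 4 genes were all called higher at 96 h than at 8 h, the 250 bases before their starts are shown. They are from RefSeq (GRCh38.p14), 5′ to 3′ on the gene's own strand. Capitals mark matches, on either strand, to the C/EBP-type motif TTGCNNAA, the AP-1 motif TGANTCA and the TATA motif TATAAA. RefSeq's table gave 3 starts for S100A8, and the window with a TATA match nearest its start is shown. Of the other windows, 1 held no match and 1 held the same TATA letters, which ended 121 bases before its start.
S100A8 (chr1:153391074-153391323, minus strand): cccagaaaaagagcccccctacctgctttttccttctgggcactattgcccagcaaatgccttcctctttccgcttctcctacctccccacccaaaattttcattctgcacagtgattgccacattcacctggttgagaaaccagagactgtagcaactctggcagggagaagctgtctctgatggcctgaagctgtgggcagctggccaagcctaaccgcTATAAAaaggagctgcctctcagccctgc
S100A9 (chr1:153357604-153357853, plus strand): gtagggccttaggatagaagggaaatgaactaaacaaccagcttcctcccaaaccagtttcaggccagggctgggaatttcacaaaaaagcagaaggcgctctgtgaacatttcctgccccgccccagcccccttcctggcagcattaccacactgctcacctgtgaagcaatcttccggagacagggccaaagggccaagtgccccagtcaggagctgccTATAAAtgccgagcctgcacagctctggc
S100A12 (chr1:153375622-153375871, minus strand): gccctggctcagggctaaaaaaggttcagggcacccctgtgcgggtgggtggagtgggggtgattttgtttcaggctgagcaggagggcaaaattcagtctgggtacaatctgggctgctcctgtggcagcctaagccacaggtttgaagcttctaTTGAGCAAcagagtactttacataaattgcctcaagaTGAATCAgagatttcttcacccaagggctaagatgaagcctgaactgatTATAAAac
S100P (chr4:6693628-6693877, plus strand): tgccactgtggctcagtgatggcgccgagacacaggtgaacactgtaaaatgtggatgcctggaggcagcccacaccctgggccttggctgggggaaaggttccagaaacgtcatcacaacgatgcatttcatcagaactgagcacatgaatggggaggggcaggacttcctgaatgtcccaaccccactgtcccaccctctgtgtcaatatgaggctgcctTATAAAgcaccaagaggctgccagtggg
In the windows shown the TATA match ended 24 bases before the start in S100A8 and S100A9, 23 in S100P and 3 in S100A12. For S100A8 the choice of window fixed that it held one. S100A4 also held one, and S100A6, S100A10 and S100A11 held none. A TATA match was found in 10.7% of the 35116 windows of the same length in the table. The C/EBP-type match stood in S100A12 (bases 94 to 87 before the start) and in S100A11, against 9.05% of all windows, and the AP-1 match in S100A12 alone (bases 57 to 51), against 6.57%. GC content of the windows shown was 53.2% for S100A8, 55.6% for S100A9, 49.2% for S100A12 and 55.6% for S100P. It was 62.8% for S100A4, 63.6% for S100A11, 70% for S100A6 and 71.2% for S100A10. These are matches to letters and were not tested as binding sites.

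The 3 alarmin genes and S100P rose steeply between 8 and 96 h in UT cells and in vit C-treated cells, whereas S100A4, S100A6, S100A10 and S100A11 were within a log2 difference of 1 between these times. S100A4 and S100A10 passed this threshold in some settings. S100A4 was called higher in vit C-treated cells with quantile normalization (1.12, q = 4.65e-05). S100A10 was called lower in UT cells with normexp background correction (-1.01, q = 0.00245), with the 75th percentile taken over detected probes (-1.01, q = 0.00514), without UT 8 h replicate 1 (-1.19, q = 0.0177) and without UT 96 h replicate 3 (-1.08, q = 0.00599). From 8 to 96 h, 4 of the 8 genes were called in UT cells and the same 4 in vit C-treated cells, all higher. Over all genes, 16.1% were called in UT cells and 28.9% in vit C-treated cells. The arrays of 96 h all lay above those of 8 h for 17.7% of all genes in UT cells and below for 19.1%. In vit C-treated cells these shares were 27.2% and 40.2%. Such shares were not counted for neighbouring times, so absence of overlap between these is given only as a description. The median log2 difference of the 8 genes was 1.97 in UT and 2.32 in vit C-treated cells, against 0.02 and -0.17 over all genes by their brightest probe. In a bulk sample more RNA per cell and more cells that make it cannot be told apart.

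S100A8 encodes the smaller chain of calprotectin. On the UT arrays its normalized log2 signal at 8 h was -0.73 and -0.62, followed by -0.64, -0.83 and -0.39 at 24 h, 2.62 and 2.95 at 48 h, and 5.27, 5.91 and 6.26 at 96 h. On the vit C arrays it was -0.76, -0.75 and -0.88 at 8 h, 0.36 and 0.84 at 24 h, 4.06 and 4.67 at 48 h, and 7.22 and 6.84 at 96 h. UT cells kept a low level to 24 h, where arrays overlapped with those of 8 h, and rose at each later time without overlap. In vit C-treated cells every time lay above the one before, also at 24 h. From 8 to 96 h S100A8 rose 89.7-fold in UT cells (log2 difference 6.49, SE 0.29, q = 7.4e-09) and 226-fold in vit C-treated cells (7.82, SE 0.29, q = 4.58e-10). Ordered by mean, the 8 groups ran from vit C 96 h over UT 96 h, vit C 48 h, UT 48 h and vit C 24 h to UT 24 h, UT 8 h and vit C 8 h. In this order only UT 24 h and UT 8 h overlapped as neighbours.

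S100A9 encodes the other chain of calprotectin. On the UT arrays it was -3.59 and -3.40 at 8 h, -3.20, -2.76 and -3.34 at 24 h, -0.51 and -0.40 at 48 h, and 2.13, 2.89 and 4.20 at 96 h. On the vit C arrays it was -3.09, -2.78 and -2.91 at 8 h, -2.43 and -1.86 at 24 h, 0.93 and 0.98 at 48 h, and 4.49 and 4.50 at 96 h. Each time lay above the one before in both arms, with the widest spread in UT cells at 96 h (SD 1.05, n = 3), where replicate 3 stood highest. From 8 to 96 h it rose 95.1-fold in UT cells (6.57, SE 0.42, q = 1.08e-07) and 171-fold in vit C-treated cells (7.42, SE 0.42, q = 2.23e-08). Its largest step in UT cells was from 48 to 96 h, by 3.53, and for S100A8 it was from 24 to 48 h, 10.6-fold.

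S100A12 encodes calgranulin C, a ligand of AGER. On the UT arrays it was -3.63 and -3.21 at 8 h, -3.70, -3.42 and -3.52 at 24 h, -2.38 and -2.21 at 48 h, and 0.24, 0.90 and 1.29 at 96 h. On the vit C arrays it was -3.33, -3.83 and -3.18 at 8 h, -2.64 and -2.39 at 24 h, -1.04 and -0.61 at 48 h, and 2.76 and 2.32 at 96 h. Most of its rise fell between 48 and 96 h, 8.58-fold in UT and 10.3-fold in vit C-treated cells. Between 8 and 24 h its UT arrays overlapped, and its vit C arrays of 24 h all lay above those of 8 h. From 8 to 96 h it rose 18.7-fold in UT cells (4.23, SE 0.30, q = 2.17e-07) and 63.5-fold in vit C-treated cells (5.99, SE 0.30, q = 7.91e-09). Its processed signal at 8 h was low, from 30.6 to 49.3, and the size of the rise depended on the processing. Over the alternatives other than a left-out array, the difference ran from 3.12 to 4.23 in UT cells. In vit C-treated cells it ran from 4.62 to 6.12.

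S100P, named after its discovery in placenta, was the least even of the 4. On the UT arrays it was -2.33 and -2.08 at 8 h, -3.46, -3.97 and -2.44 at 24 h, -0.75 and -3.81 at 48 h, and 2.56, 0.63 and 0.44 at 96 h. On the vit C arrays it was -2.32, -2.51 and -1.98 at 8 h, -2.97 and -2.48 at 24 h, 1.24 and 1.49 at 48 h, and 1.38 and 1.74 at 96 h. The UT arrays of 48 h lay 1 at the level of 24 h and 1 well above it (SD 2.16, n = 2), while in vit C-treated cells the level of 48 h overlapped that of 96 h. From 8 to 96 h S100P rose 10.7-fold in UT cells (3.42, SE 0.74, q = 0.00417) and 14.2-fold in vit C-treated cells (3.83, SE 0.74, q = 0.00154).

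**Figure D1:**
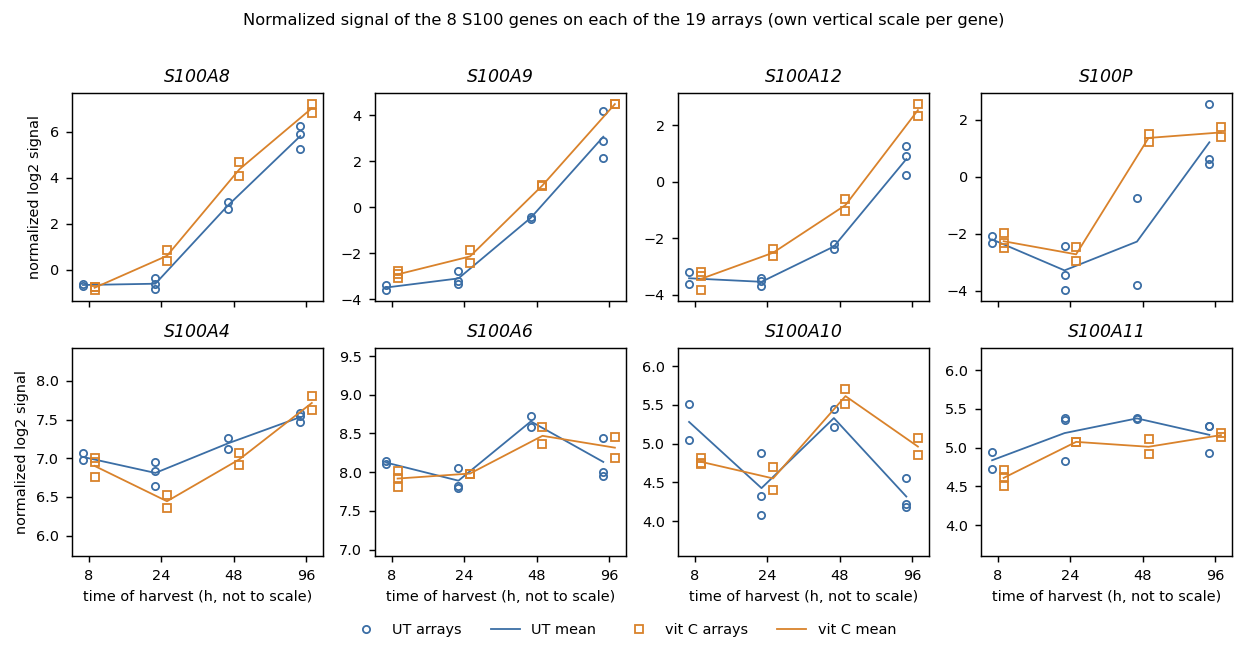
Normalized log2 signal of the 8 S100 genes (brightest probe) against the time of harvest, with 1 open circle per UT array, 1 open square per vit C array and lines through the group means; each gene has its own vertical scale, spanning at least 2.4 log2 units. The group means of S100A8, S100A9, S100A12 and S100P are highest at 96 h in both arms, and those of each gene in the lower row span at most 1.27 log2 units within an arm.

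On the 8 UT arrays of slide 1 alone, with 1 array at 96 h, the log2 difference between 96 and 8 h was 5.94 for S100A8 (61.4-fold), 5.63 for S100A9, 3.66 for S100A12 and 4.77 for S100P. These are values of a single array of 96 h, and for S100P that array (2.56) lay about 2 log2 units above the other UT arrays of that time (0.63 and 0.44). In vit C-treated cells, slide 2 held the arrays of 8 and 24 h and 1 of 48 h, and by 48 h that array was higher than the mean of 8 h by 4.86 for S100A8, 3.86 for S100A9, 2.41 for S100A12 and 3.51 for S100P. The calls between 96 and 8 h of these 4 genes held with each array left out in turn, in both arms.

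The other 4 genes changed less over time. In the F test over the 4 times, which asks whether any time differs, 5 of the 8 genes were called in UT cells (the 4 above and S100A10), against 22.6% of all genes, and 6 in vit C-treated cells (these 5 and S100A4), against 37.3%. S100A4, also known as metastasin, dipped at 24 h and was highest at 96 h. Its UT arrays read 6.97 and 7.06 at 8 h, 6.64 to 6.95 at 24 h, 7.12 and 7.26 at 48 h, and 7.47 to 7.58 at 96 h, and its vit C arrays 6.36 and 6.53 at 24 h, 6.91 and 7.06 at 48 h, and 7.63 and 7.80 at 96 h, after a mean of 6.90 ± 0.13 (SD, n = 3) at 8 h. The range of its group means was 0.72 in UT cells (q = 0.014) and 1.27 in vit C-treated cells (q = 8.85e-04), which is past the threshold of 1 only in the latter.

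S100A10, the partner of annexin A2, went down, up and down again. In time order its mean in UT cells was 5.28, 4.43, 5.33 and 4.32 (SDs from 0.16 to 0.41, n = 2 or 3), and in vit C-treated cells it was 4.77, 4.55, 5.61 and 4.96 (SDs from 0.042 to 0.21). Between neighbouring times the arrays of each arm did not overlap, though the share of all genes for which this held was not counted. The call of S100A10 over UT times was lost without UT 48 h replicate 2, UT 96 h replicate 1 or UT 96 h replicate 2, and over vit C times without vit C 24 h replicate 1, either array of 48 h or vit C 96 h replicate 2. S100A6, whose gene lies 2 places from S100A4 with S100A5 between them, ranged from 7.79 to 8.73 over all 19 arrays and was highest at 48 h in both arms, with a range of means of 0.77 in UT cells (q = 0.0485) and 0.55 in vit C-treated cells (q = 0.0914), and was not called. S100A11 ranged from 4.50 to 5.38 for its brighter probe and from 3.89 to 4.74 for the other, each lowest at 8 h in the group means, and was not called (q = 0.302 and 0.113 for the brighter probe).

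Across the 12 other S100 genes on the array, 1 rose and 2 fell by the call from 8 to 96 h in UT cells. In vit C-treated cells 1 rose. Over all genes, 16.1% and 28.9% were called in these arms. The one that rose was S100B, a marker of glia and of some antigen-presenting cells, on chromosome 21, with a log2 difference of 4.49 in UT cells (SE 0.32, q = 2.51e-07) and 4.97 in vit C-treated cells (SE 0.32, q = 6.69e-08). At 8 h, 1 of 2 UT arrays and all 3 vit C arrays gave it a signal well above background. S100A2 fell in UT cells (-1.45, SE 0.20, q = 1.29e-04). S100Z was well above background on the UT arrays of 8 h alone, and was at least 1.1-fold higher there than at 96 h. S100A7A and S100A7, which follow S100A8 on the chromosome, were well above background on 0 and 7 arrays. With vit C, 3 of the 12 genes were higher at 24 h, S100A3 (1.18, q = 0.0157), S100A16 (1.23, q = 0.00934) and S100B (1.47, q = 0.0344, with 1 of 3 UT arrays well above background), and S100B was higher at 96 h (1.07, q = 0.0416).

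**Figure D2:**
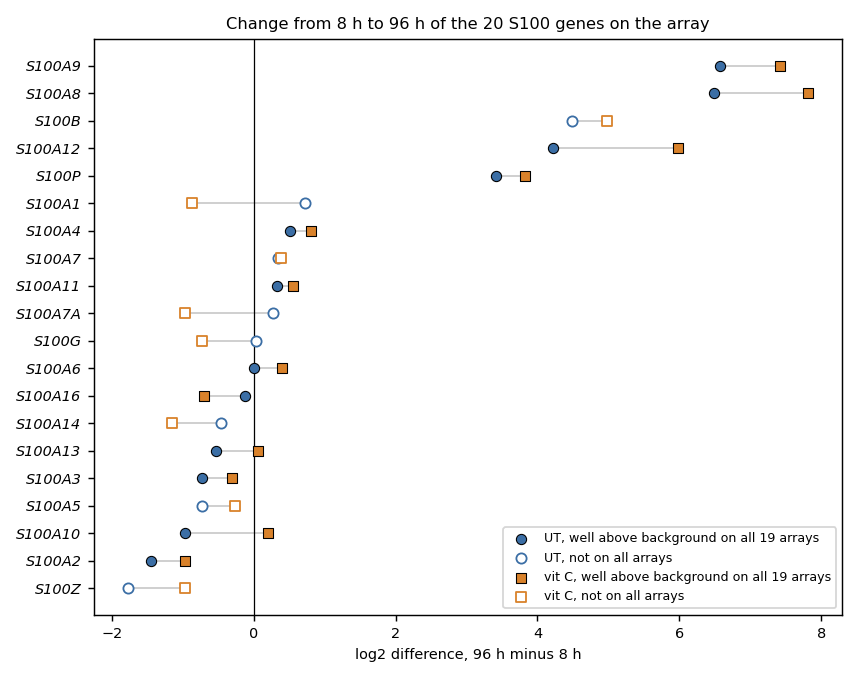
Log2 difference between 96 and 8 h for the 20 S100 genes on the array, with circles for UT and squares for vit C-treated cells; filled points are genes well above background on all 19 arrays and open points are not, and genes are sorted by the UT value. S100A9, S100A8, S100B, S100A12 and S100P stand apart from the other genes, between 3.42 and 7.82.

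Mean signals of S100A8, S100A9 and S100A12 were higher in vit C-treated than in UT cells of the same time from 24 h on. Not all of these differences were called. At 24, 48 and 96 h they ran from 0.96 to 1.74 on the log2 scale, against 4.23 to 7.82 between 96 and 8 h. UT and vit C arrays of a time lay on different slides. With the slide as a fixed term, S100A9 changed sign at 24 and 48 h (-0.46 and -0.03). None of the 8 genes was called at 8 h, where 0.549% of all genes were and 1 of the 8, S100A10, had an unadjusted p under 0.05 in limma. S100A8 was called at 24 h (1.65% of genes), S100A8, S100A12 and S100P at 48 h (3.64%), and S100A8, S100A9 and S100A12 at 96 h (12.8%). Averaged over the 4 times, S100A9 and S100A12 were called (3.46%). All these values were higher with vit C. S100A11 left the test at 24 and 96 h, because its 2 probes differed in sign, both near 0. The median log2 difference of the 8 genes was -0.12, 0.34, 0.85 and 0.50 at the 4 times, against -0.05, -0.13, -0.02 and -0.15 over all genes.

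S100A8 differed by -0.12 (SE 0.29) at the first time. It was 2.32-fold higher with vit C at 24 h (1.22, SE 0.29, q = 0.0493), 2.99-fold at 48 h (1.58, SE 0.31, q = 0.0139) and again 2.32-fold at 96 h (1.21, SE 0.29, q = 0.0237). The vit C arrays lay below the UT arrays at 8 h, as for 24.3% of all genes, and above them at the 3 later times. For S100A9 the difference was 0.57 (SE 0.42), 0.96 (q = 0.265), 1.41 (SE 0.46, q = 0.116) and 1.42 (SE 0.42, q = 0.0406), with every vit C array above every UT array at each of the 4 times, as for 14.8%, 12.1%, 21.8% and 10.7% of all genes. For S100A12 it was -0.03 (SE 0.30), 1.03 (q = 0.0962), 1.47 (SE 0.32, q = 0.0233) and 1.74 (SE 0.30, q = 0.00382), with overlap at 8 h alone. The average over the times was 0.97 for S100A8 (SE 0.15, q = 7.41e-04), just under the threshold of 1, 1.09 for S100A9 (SE 0.21, q = 0.00433) and 1.05 for S100A12 (SE 0.15, q = 5.37e-04). The F test of whether the 4 effects differ from each other called 0 of the 8 genes, with 1.36% of all genes called, and gave q = 0.139 for S100A8, 0.72 for S100A9 and 0.136 for S100A12. In limma 4 of the 8 genes (S100A8, S100A12, S100A10 and S100P) had an unadjusted p under 0.05 in this test.

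S100P was 12.5-fold higher with vit C at 48 h (3.65, SE 0.82, q = 0.0248) and differed by -0.06, 0.56 and 0.35 at 8, 24 and 96 h (SE 0.74 each). The difference at 48 h rested on the UT arrays, since without UT 48 h replicate 2, the lower of the pair, it was 2.12 (q = 0.244). S100A4 differed by -0.12, -0.37, -0.21 and 0.18, S100A6 by -0.21, 0.09, -0.19 and 0.18, S100A10 by -0.51, 0.13, 0.28 and 0.65, and the brighter S100A11 probe by -0.23, -0.11, -0.37 and -0.00, with q of at least 0.085 wherever they were tested. Their 95% intervals reached from -1.03 to 1.16 at the widest, both for S100A10 (at 8 and 96 h), so a difference of 1 log2 unit lay outside most but not all of them.

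**Figure D3:**
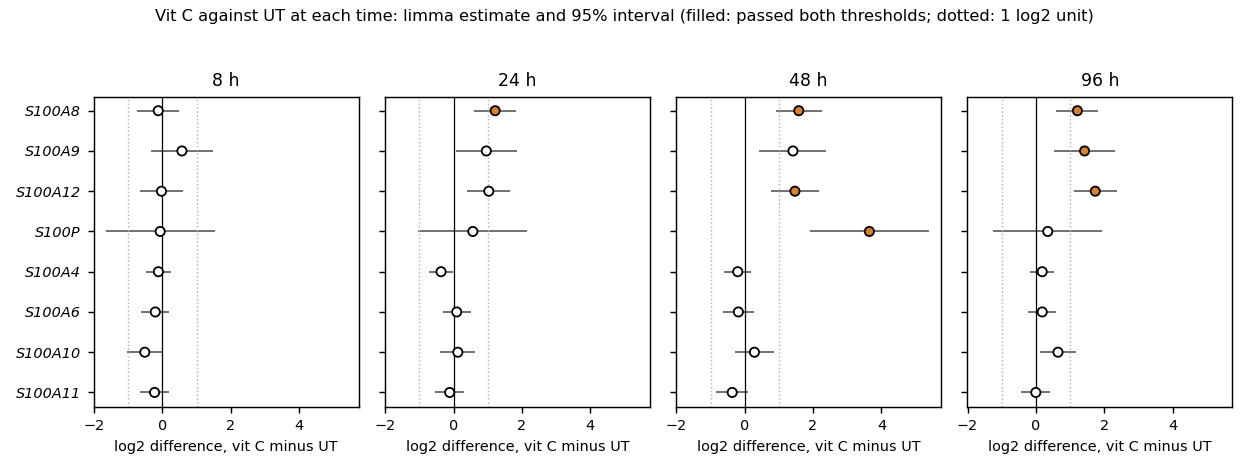
Log2 difference of vit C-treated minus UT cells at each time, with the limma estimate as a point and its 95% interval as a bar; filled points passed both thresholds and dotted lines mark 1 log2 unit. The upper rows shift right of 0 from 24 h on, and the lower 4 genes stay between -0.51 and 0.65.

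The differences were also set against the slides. UT cells of 96 h were the group split between slides 1 and 2, and there the mean of the 2 arrays on slide 2 was above the array on slide 1 by 0.82 for S100A8, 1.42 for S100A9 and 0.86 for S100A12, while the same difference was -2.03 for S100P and within 0.27 of 0 for the other 4 genes. Against the UT arrays of slide 2 alone, the vit C arrays of 96 h were higher by 0.94 for S100A8 (q = 0.0595), 0.95 for S100A9 (q = 0.109) and 1.45 for S100A12 (q = 0.00867), so S100A12 stayed called and the other two did not. With a fixed slide effect in the fit, which rests on these 3 UT arrays, 0 of the 8 genes were called at 24 and 48 h, where S100A8 differed by 0.40 and 0.46, S100A12 by 0.17 and 0.40, S100P by 2.59 and 5.54, and S100A9 by -0.46 and -0.03. At 96 h the vit C arrays had a slide and a scan day of their own, so vit C, slide and scan day cannot be told apart. The part of the slide in the differences at 24 and 48 h was not tested further.

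**Figure D4:**
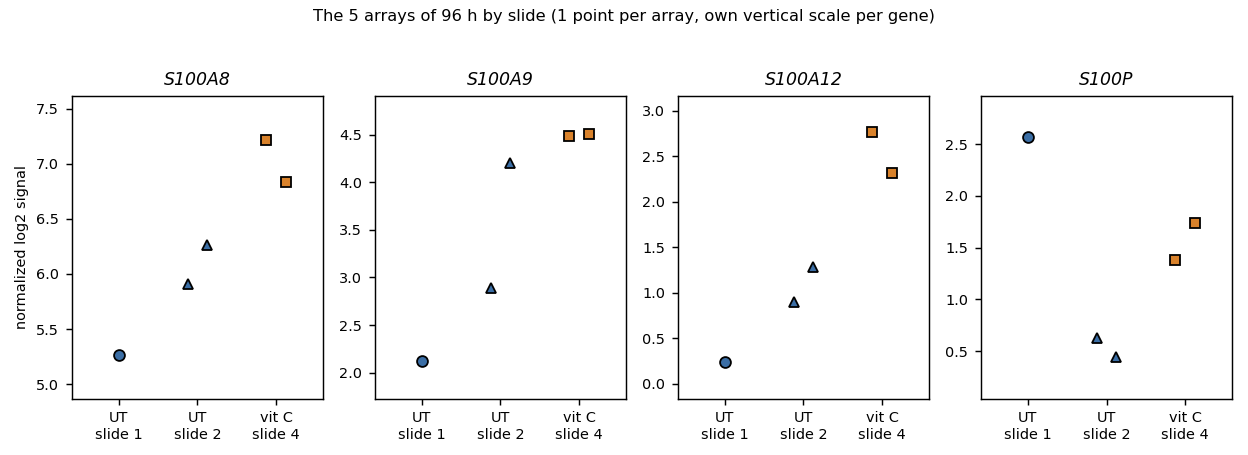
Normalized log2 signal of S100A8, S100A9, S100A12 and S100P on the 5 arrays of 96 h, with 1 point per array placed by slide (circle slide 1, triangles slide 2, squares slide 4), UT in blue and vit C in orange, and a vertical scale per gene that does not start at 0. The UT arrays of slide 2 lie between the UT array of slide 1 and the vit C arrays for S100A8, S100A9 and S100A12, and below both for S100P.

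Single arrays also carried calls, over all genes as well as for the members. With 1 array left out, the genes called over the whole table numbered 17 to 77 at 8 h, against 138 with all arrays, 95 (without vit C 24 h replicate 2) to 366 (without vit C 24 h replicate 1) at 24 h, against 432, 280 to 536 at 48 h, against 926, and 480 (without vit C 96 h replicate 1) to 5992 (without UT 96 h replicate 3) at 96 h, against 3375. Each array but vit C 24 h replicate 1 moved its count by over 1.5 times. The call of S100A8 at 24 h was lost with any of the 5 arrays left out, at differences between 0.98 (without vit C 24 h replicate 2) and 1.46 (without vit C 24 h replicate 1) and q from 0.0689 to 0.384. At 48 h S100A8 was called without vit C 48 h replicate 1 (1.89, q = 0.024) and lost without each of the other 3 arrays (1.28 to 1.75), and S100A12 was lost without any of the 4 (1.25 to 1.68, q from 0.0555 to 0.186). At 96 h S100A8 was lost without UT replicate 1 or either vit C array, S100A9 was called only without UT replicate 3 (1.99, q = 8.45e-04), and S100A12 was lost only without vit C replicate 1 (1.51, q = 0.0701). Of the averages over the times, S100A9 was lost without UT 96 h replicate 1 (0.97), and S100A12 without that array (0.98), vit C 48 h replicate 2 or vit C 96 h replicate 1. S100P at 48 h was called only without UT 48 h replicate 1 (5.17, q = 0.00386). Where this left 1 array in a group, its spread was taken from the remaining groups.

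Of 10 receptors and adaptors that S100 proteins act through, 9 were tested from 8 to 96 h in each arm. Over all genes, 16.1% were called in UT cells and 28.9% in vit C-treated cells. In UT cells 2 of the list rose, CD14 (4.22, SE 0.26, q = 8.3e-08) and LY96 (1.88, SE 0.22, q = 2.48e-05), which bring lipopolysaccharide to TLR4 and complete its receptor. In vit C-treated cells CD14 (4.55), LY96 (1.79) and NPTN (1.27, q = 0.0383) rose. TLR4 itself differed by -0.07 in UT cells, where opposing probes kept it out of the test, and by 0.36 in vit C-treated cells (q = 0.269), and AGER by -0.13 and 0.30 (q = 0.736 and 0.351). With vit C, LY96 was higher at 48 h (1.34, SE 0.24, q = 0.00866), a dimmer probe of TLR4 lower at 24 h (-1.51, SE 0.32, q = 0.0298), while its brightest differed by -0.89, and the lymphocyte activation marker CD69 lower at 96 h (-2.46, SE 0.66, q = 0.0345), where 1 of 2 vit C arrays was well above background. The median of the list was -0.14, -0.18, -0.13 and -0.08 at the 4 times. Of 7 binding partners on the array, AHNAK fell over time in both arms by a probe other than its brightest, IQGAP1 rose in vit C-treated cells (1.17, q = 0.0331), and a dimmer AHNAK probe was lower with vit C at 24 h (-1.01, q = 0.0209). ANXA2, the partner of S100A10, differed by -0.26, 0.03, -0.40 and 0.12 with vit C, tested at 24 h alone because of opposing probes, and ANXA1 by -0.35, -0.18, -0.12 and -0.26, and neither was called.

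The NADPH oxidase, to which calprotectin brings arachidonic acid, had 0 of its 6 genes called with vit C at any time in limma, with 1, 3, 1 and 2 genes at an unadjusted p under 0.05. Over time NCF1 fell in both arms (-2.20 in UT cells, q = 8.17e-04, and -1.38 in vit C-treated cells, q = 0.0141). RAC2 fell in vit C-treated cells (-1.30, q = 5.66e-05) and, in UT cells, by a probe other than its brightest (brightest -0.88). Of 8 myeloid transcription factors, the monocyte regulator KLF4 was lower with vit C at 24 h (-1.71, SE 0.33, q = 0.0212) and IRF8 higher at 96 h (1.27, SE 0.34, q = 0.0348). CEBPA, CEBPB, CEBPD and CEBPE, members of the C/EBP family, differed by -0.56 to 0.75 with vit C, the highest value being that of CEBPE at 48 h (q = 0.1), and none was called where its probes let it be tested. Over time SPI1, IRF8 and STAT3 fell in UT cells and KLF4 in vit C-treated cells, STAT3 by a probe other than its brightest. Of 11 genes of granule proteins on the array, which neutrophils and monocytes store, 2 rose and 5 fell over time in UT cells. In vit C-treated cells 2 rose and 4 fell. Over all genes, 16.1% and 28.9% were called in these arms. PRTN3 (-4.68), AZU1 (-4.06) and CTSG (-5.15) fell in UT cells from 8 to 96 h, and in vit C-treated cells as well (-4.95, -3.80 and -4.68), while BPI rose at least 14.3-fold in UT and at least 9.41-fold in vit C-treated cells. With vit C, AZU1 was lower at 48 h (-1.37, q = 0.0324) and LYZ, lysozyme, higher at 96 h (1.17, q = 0.0422), and DEFA4, called lower at 96 h, was well above background on 0 arrays.

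Some markers of monocytes were also higher with vit C. FCN1 (2.08, SE 0.29, q = 8.32e-04) and VCAN (1.98, SE 0.27, q = 7.13e-04), genes of circulating monocytes, were higher with vit C at 96 h, VCAN also at 48 h (1.16, q = 0.0431), and the scavenger receptor MARCO was higher at 24 and 48 h (1.72 and 1.62), while ITGAM was lower at 48 h (-1.17) and MSR1 lower at 48 and 96 h (-1.10 and -1.07). Of the 17 markers, 0 were called in limma at 8 h (1, FCN1, at an unadjusted p under 0.05), 1 was called higher at 24 h, 2 higher and 2 lower at 48 h, and 3 higher and 1 lower at 96 h. The list's median difference was -0.10, -0.48, 0.07 and 0.33 at the 4 times and -0.07 for the average. Over time CD14, CD163, MARCO, APOE, C1QA and VCAN rose in UT cells and CD68, LYZ and SPI1 fell. The fibroblast gene DCN was higher with vit C at 48 and 96 h (2.34 and 2.48, q = 0.00833 and 0.0019) and rose over time by 5.30 in UT and 7.46 in vit C-treated cells. COL1A1 was well above background on 5 arrays, all with vit C, and COL1A2 on 0. The log2 of the summed signal of the 3 fibroblast genes ranged from -0.54 to 0.37 in UT and from 2.11 to 2.30 in vit C-treated cells at 96 h, and that of the 17 monocyte and macrophage markers from 8.48 to 8.95 and from 8.67 to 8.73. Of the T cell, B cell and epithelial markers, 1 was called with vit C, a dimmer probe of CD3D, lower at 96 h. CD3D was well above background on 0 arrays by its brightest probe, so no difference is given. The part of these markers in the S100 differences was not tested.

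Across the 19 arrays, S100A8, S100A9 and S100A12 followed each other closely, with Pearson's r of 0.99 between S100A8 and S100A9, 0.97 between S100A8 and S100A12 and 0.98 between S100A9 and S100A12. S100P had r of 0.83 to 0.85 with these 3, and S100A4 0.80 to 0.82. Since the points share their times, the deviations from the group means were also compared. These still hold the slide, which splits UT cells of 96 h and vit C-treated cells of 48 h, and its part was not tested. There r was 0.63, 0.73 and 0.67 among the 3 alarmin genes and -0.38 to -0.51 with S100P. Values as high were found outside the 3, with r of 0.66 between S100A6 and both S100A8 and S100A9 and 0.65 between S100A4 and S100A12. S100A6 and S100A10 had r of 0.72 over the arrays and 0.71 about the group means. Among 9984 other genes that were well above background on all arrays and whose array name is a gene symbol in RefSeq, the patterns most like S100A8 were those of ALOX5 (r = 0.990), the 5-lipoxygenase of leukotriene synthesis, and of the mitosis genes PRC1 and KIF11 (0.988 and 0.987). For S100A9 they were FAM83D, RACGAP1 and the caspase-1 inhibitor listed as COP1 (0.984 to 0.980), for S100A12 C2, CABLES1 and ANG (0.968 to 0.965) and for S100P PSAT1, DRD5 and ASNS (0.955 to 0.947). For S100A10 the list held 2 other genes of its family, S100A13 (0.828) and S100A3 (0.762), with LFNG between them. For S100A4 the most alike was FZD2 (0.952) and for S100A11 MEA1 (0.873). With quantile normalization the first gene was another for S100A12 (NIF3L1, 0.967) and the same for S100A8, S100A9, S100A4, S100A10, S100A11 and S100P.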

How the data were processed

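RNA from PMA-differentiated THP-1 cells, UT or vit C-treated, was measured on 19 Agilent one-colour arrays in 8 groups, each array mapped to its group and replicate by its label. The authors hybridized only samples that passed their limit of RNA integrity. For the intensity values, the authors extracted spots with Agilent Feature Extraction (10.5.1.1 per the file headers) and deposited the processed signals, which are detrended and not normalized between arrays, together with flags for signals well above background, used here as a score of detection. For the log2 values, the authors deposited a value table of signals shifted to each array's 75th percentile. For probes with 1 spot it equalled the values used here up to a constant per array, and it served as an alternative.

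Spots of a probe were averaged on the log2 scale and the array's 75th percentile was subtracted. A model of 8 group means was fitted with limma 3.58.1 (lmFit and eBayes, 2-sided, R 4.3.3, with files read by version 1.17.8 of data.table). Genes with opposing probes were removed before the Benjamini-Hochberg adjustment, as the methods did. F tests kept all genes. A gene's value is that of its brightest probe. Where no array of a group was well above background, the fold is a lower bound set by the lowest signal well above background per array. Tested on simulated data of 50238 probes, log2 changes of 3 were recovered for 85% of probes at 24 h and 88% at 96 h, and changes of 1.5 for 49% and 55%. Python 3.11.15 with matplotlib 3.10.9 drew the figures. Promoters and gene order came from RefSeq.

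The named genes are the 8 S100 genes, every gene of the other lists that was called with vit C, up to 3 others per list, and the 3 most similar genes, of which some are not reported here. The members and lists were chosen with earlier results of these data known. Alternatives were the methods' t-test, only the compared groups fitted, an intensity trend, quantile normalization, normexp (offset 50), signals floored at 20, a 75th percentile taken over detected probes, no dim probes, gene means of probes, no removal of opposing probes, the slide as a random or fixed term, the replicate number, the authors' value table, the UT arrays of 1 slide and each array left out.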

Additional observations from a re-analysis of the deposited data

How the results depend on the processing

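The rises of S100A8, S100A9, S100A12 and S100P from 8 to 96 h kept their direction under every alternative run, and in vit C-treated cells their calls. The slide as a fixed term could not be fitted for the rise in vit C-treated cells. Their arrays of 96 h shared no slide with any others, so time, slide and scan day cannot be told apart between 8 and 96 h. Leave-outs aside, the lowest log2 difference over the alternatives in UT cells was 5.94, 5.22, 3.12 and 2.66 for the 4 genes in this order. In vit C-treated cells it was 7.44, 6.55, 4.62 and 3.00. In UT cells only the methods' t-test ended calls, leaving 1 gene, and it left 0 at 24, 48 and 96 h with vit C. Fitting only the compared groups left 0 at 24, 48 and 96 h as well. At 24 h the count was also 0 with opposing probes kept and with the slide as a random or fixed term, and at 48 h 0 with the slide as a fixed term. S100A9 at 96 h was lost with signals floored at 20 (q = 0.1) and with dim probes left out (q = 0.0598), and S100A12 at 48 h with normexp (0.98, q = 0.0608). Normexp left 0 for the average effect, quantile normalization called 1 gene, S100A8, for the difference between effects, and the UT arrays of 1 slide called 3 over the UT times. With each array left out, the number of members called was 0 to 0 at 8 h and at 24 h, 0 to 1 at 48 h, 0 to 3 at 96 h, 1 to 3 for the average, 0 to 1 for the difference between effects, 4 to 5 over UT times, 5 to 6 over vit C times, 4 to 5 for UT 96 against 8 h and 4 to 4 for vit C. The causes were not tested.

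The values that changed sign were these. S100A11 at 96 h was 0.21 with quantile normalization, 0.083 with normexp, 0.088 with the detected percentile, 0.075 as a gene mean and 0.065 with the replicate block. S100A12 at 8 h was 0.088 with normexp and 0.017 with the detected percentile, and the S100A6 average 0.024 and 0.017. S100A6 between 96 and 8 h in UT cells was -0.0028 with normexp, -0.034 with the detected percentile, -0.029 with the replicate block and -0.17 on 1 slide or with the slide as a fixed term. S100P at 8 h was 0.045 with the slide as a random block. With the slide as a fixed term S100A9, which was 0.57, 0.96 and 1.41 without it, was -0.84, -0.46 and -0.030 at 8, 24 and 48 h, S100P 1.96 at 8 h, S100A6, S100A10 and S100A11 -0.18, -0.086 and 0.056 at 24 h, and S100A10 -0.026 at 48 h. With each array left out, S100A6 between 96 and 8 h in UT cells ran from -0.15 to 0.099, S100A12 at 8 h from -0.23 to 0.18, S100P at 8 h from -0.21 to 0.058 and at 96 h from -0.038 to 1.02, S100A10 at 24 h from -0.051 to 0.35, S100A11 at 96 h from -0.12 to 0.055 and the S100A6 average from -0.064 to 0.0098.

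The replicate numbers, taken from the sample titles, were not used for pairing in the main fit. For 48 h the descriptions number the same arrays 2 and 3 where the titles have 1 and 2. Deviations of the 8 same-numbered pairs had r from -0.34 to 0.13, with 1 over 0.1. In groups of 2 arrays the deviations mirror each other. These pairs are therefore not independent and cannot decide whether the numbers pair the arrays. With the replicate block the members called were 0, 1, 3 and 3 at the 4 times and 5 over vit C times, and all genes called went from 138 to 48 at 8 h, 3375 to 1203 at 96 h and 422 to 160 for the difference between effects. Over all genes and the settings that kept every array, counts ran from 9 (slide as a fixed term) to 508 (only the compared groups) at 8 h, against 138, from 0 (methods' t-test) to 558 (quantile normalization or intensity trend) at 24 h, against 432, from 0 (only the compared groups) to 1169 (quantile normalization) at 48 h, against 926, and from 0 (methods' t-test) to 3739 (opposing probes kept) at 96 h, against 3375. At 96 h 1746 genes were called with the intensity trend, 1442 with the detected percentile, 1019 with dim probes left out, 1000 with quantile normalization, 829 with normexp and 747 with the floor. The average ran from 241 (normexp) to 1120 against 912, the difference between effects from 160 (replicate block) to 981 (floor) against 422, UT 96 against 8 h from 285 (methods' t-test) to 4505 against 4263, and vit C from 4038 (floor) to 9049 (only the compared groups) against 7842. The F tests called 4035 (normexp) to 7159 (quantile normalization) genes over UT times, against 7011, and 6415 (floor) to 13822 (normexp) over vit C times, against 11570.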
